A study of Mus musculus with 24 samples.

Results

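The enzymes that make and oxidise hydrogen sulfide (H2S) were followed as 7 genes of 34832 gene names or identifiers on 1-colour Agilent mouse arrays, through 9 of 55681 non-control probes. The members were every probe that the array design names Cbs, Cth, Mpst, Sqrdl (the older symbol of Sqor), Ethe1, Tst or Suox. Cth and Tst had 2 probes each and every other member had 1. The RNA came from primary mouse alveolar type II cells, the surfactant-making cells of the lung, grown at an air-liquid interface. The 6 groups held 4 arrays each. They were NaHS for 24 h, vehicle (DMEM) for 24 h, NaHS for 6 h, vehicle for 6 h, GYY4137 in 85% O2 for 24 h and GYY4137 in 21% O2 for 24 h. NaHS releases H2S quickly and GYY4137 slowly, and both were given at 100 µM. Both oxygen groups carried GYY4137, so their comparison is one of oxygen level in the presence of the donor. The strain and age of the mice and the number pooled are not given in the sources used here. Whether the arrays of a group stand for separate animals or culture wells is not stated, and the p-values therefore reflect only how far these samples differed, which may be technical.

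H2S is made from sulfur amino acids by the transsulfuration enzymes cystathionine beta-synthase (Cbs) and cystathionine gamma-lyase (Cth), and by mercaptopyruvate sulfurtransferase (Mpst). In mitochondria, sulfide:quinone oxidoreductase (Sqor, here Sqrdl) passes the electrons of H2S to the respiratory chain and hands on its sulfur as a persulfide. The persulfide dioxygenase Ethe1, the thiosulfate sulfurtransferase Tst (rhodanese) and the sulfite oxidase Suox then carry that sulfur to thiosulfate and sulfate. At high levels H2S blocks cytochrome c oxidase, and this oxidation route is what clears it.

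The sequences below show a probe each of Cth, Tst and Ethe1, and the upstream region of the 2 members whose oxygen groups did not overlap. Both were higher in 85% O2, and 14.7% of all probes separated in that direction. The first is the Cth probe A_55_P1959923 at chr3:157560183-157560242, the next the Tst probe A_55_P2025468 at chr15:78230212-78230271, both on the minus strand, and the third the Ethe1 probe A_51_P117618 at chr7:25393395-25393454 on the plus strand, all in mm9 coordinates of the array design. All are 60 bases long and are given 5′ to 3′, with no base marked. The correlation of Cth with Tst given further below used their other probes, A_51_P431737 and A_51_P430082, whose sequences are not shown.
Cth probe: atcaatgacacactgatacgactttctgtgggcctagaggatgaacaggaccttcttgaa
Tst probe: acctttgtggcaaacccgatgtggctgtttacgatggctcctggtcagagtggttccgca
Ethe1 probe: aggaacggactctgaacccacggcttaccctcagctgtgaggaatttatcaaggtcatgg

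The other probes lay at chr17:31749593-31749652 (Cbs), chr3:157557667-157557726 (Cth, A_51_P431737), chr15:78244373-78244432 (Mpst), chr2:122635222-122635281 (Sqrdl), chr15:78230058-78230117 (Tst, A_51_P430082) and chr10:128106967-128107026 (Suox), also on mm9. The design assigns each to a RefSeq transcript of its gene, and exon or UTR annotation on that build was not used here. Of the 7 members, 5 had promoter entries in the RefSeq table on GRCm38.p6. The 250 bases before the listed start are shown for Cbs (chr17:31637206-31637455, minus strand) and Sqor (chr2:122771463-122771712, plus strand). Capitals mark matches on either strand to any of 5 motifs, which were the antioxidant response element (TGACNNNGC), the amino acid response element (TGATGNAA), the E-box (CACGTG), the CCAAT box (CCAAT) and the GC box (GGGCGG).
Cbs promoter: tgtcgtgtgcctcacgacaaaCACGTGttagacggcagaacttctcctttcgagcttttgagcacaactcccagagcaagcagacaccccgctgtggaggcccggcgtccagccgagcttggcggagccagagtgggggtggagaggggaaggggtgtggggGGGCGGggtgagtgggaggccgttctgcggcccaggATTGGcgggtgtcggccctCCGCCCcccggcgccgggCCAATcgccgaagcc
Sqor promoter: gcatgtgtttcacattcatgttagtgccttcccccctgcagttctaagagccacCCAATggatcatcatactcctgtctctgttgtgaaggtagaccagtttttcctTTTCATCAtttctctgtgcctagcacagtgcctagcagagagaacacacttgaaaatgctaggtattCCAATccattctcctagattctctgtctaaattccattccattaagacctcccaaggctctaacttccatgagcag

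The Cbs window held 1 E-box, 2 CCAAT boxes and 2 GC boxes, and its GC content was 68%. The Sqor window held 1 amino acid response element and 2 CCAAT boxes at a GC content of 44.4%. Among 32851 promoter windows of the same length, 6.02% held an E-box, 33.9% a CCAAT box, 32.7% a GC box, 3.45% the amino acid response element and 10.2% the antioxidant response element. Neither printed window held the antioxidant response element. These matches describe letters and are not evidence of binding.

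All 9 probes were well above background on all 24 arrays, and no non-control spot was saturated. Levels are given as log2 processed signal over each array's own 75th percentile, arrays in replicate order. They compare arrays for 1 probe and not 1 probe with another. Slide 1 carried the NaHS experiment's replicates 1 and 3 and slide 2 its replicates 2 and 4, and with group in the fit limma called 48.0% of 40127 probes between these slides. Among the members, Cbs (by -0.58), Ethe1 (by -0.28), Mpst (by -0.22) and the Tst probe A_55_P2025468 (by 0.44) were in that share, given as slide 2 minus slide 1. The main fits of the NaHS experiment had no slide term, so the SE and intervals given for it include this slide difference. Arrays of 24 h and 6 h lay in different rows of those slides, so row and time cannot be told apart. The 85% O2 group filled slide 4 and the 21% O2 group slide 3, so slide and oxygen level cannot be told apart. The scanner files of the GYY4137 experiment also name another version of the array design than those of the NaHS experiment. Experiment, slide and design version cannot be told apart, so any order of all 6 group means below is a description only. Of 10 alveolar type II markers, 8 were above background on all 24 arrays, Sftpa1 on 21 and Slc34a2, a phosphate transporter, on 1. Markers of other cell types were also present on all arrays, among them 4 of 5 fibroblast and 3 of 3 smooth muscle genes. Fewer cells of a type and less RNA per cell cannot be told apart in such bulk samples.

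Of the members, only Cbs passed the threshold in any comparison. It was 2.54-fold higher in 85% than in 21% O2 with GYY4137, and 1 of the 9 member probes was called, where 16.1% of all 41621 tested probes were called at an adjusted p under 0.05 (limma with Benjamini-Hochberg adjustment over all probes) 10.3% higher and 5.89% lower. That share is near the background and says nothing particular about the enzymes. With NaHS, no member probe was called at 24 h, at 6 h or in the difference between these effects, where 0% of 40127 probes were called in each. At an unadjusted p under 0.05 limma gave 935 probes at 24 h (2.33%), 270 at 6 h (0.673%) and 490 for the difference (1.22%), and 1 member probe, Cbs at 24 h, was among them. No member probe was called for 24 h against 6 h, either with NaHS, where 0.0249% of probes were called, or with vehicle, where 0.920% were. At an unadjusted p under 0.05 limma gave 0 member probes with NaHS and 1 with vehicle, the Cth probe A_51_P431737. With the replicate number as a block the counts of all probes for 24 h against 6 h changed to 44 with NaHS, against 10 without it, and to 1266 with vehicle, against 369. With the slide as a block they were 70 with NaHS and 1081 with vehicle, and no member probe was called.

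**Figure D1:**
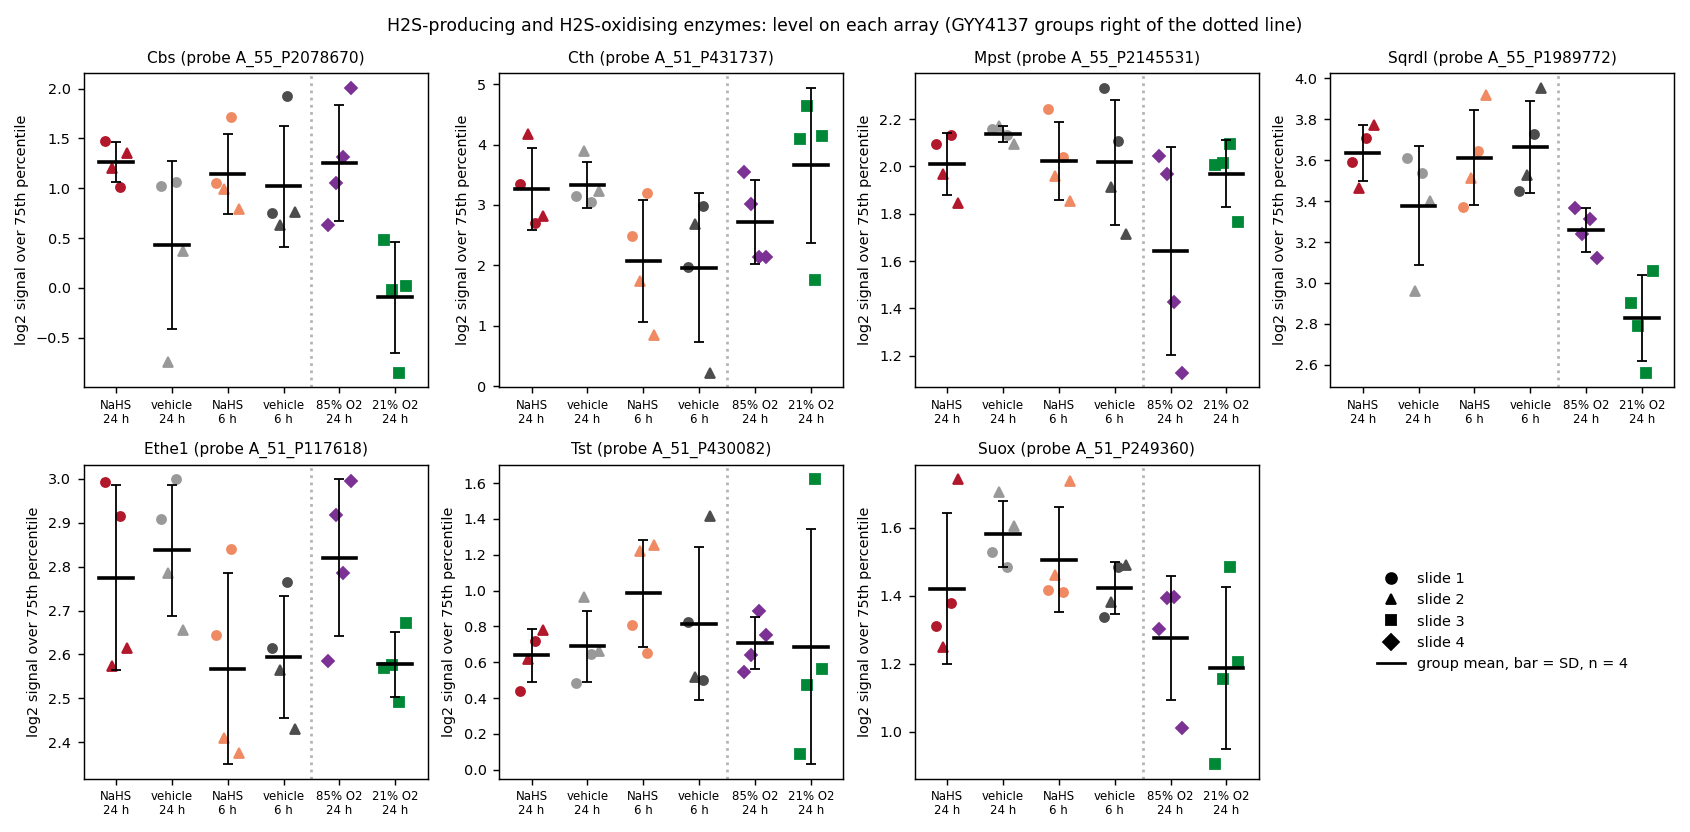
Level of the 7 enzymes on each of 24 arrays (y axis, log2 signal over the array's 75th percentile; the y range differs between panels), by group, with the mean and SD of 4 arrays in black and the slide as the marker shape. Cbs and Sqrdl separate the 85% O2 from the 21% O2 arrays, as 14.7% of all probes do in that direction. Cth spreads widest in 5 of the 6 groups, Cbs in vehicle 24 h.

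Cbs stood at 0.63, 1.05, 1.31 and 2.01 in 85% O2, against 0.49, -0.02, -0.85 and 0.02 in 21% O2. Every 85% O2 array lay above every 21% O2 array, as for 14.7% of all probes. The difference was 1.34 ± 0.35 on the log2 scale (SE, n = 4 arrays each; 95% interval 0.54 to 2.15; limma adjusted p = 0.0365). With the replicate number as a block the adjusted p was 0.0607, and over 17 alternatives the difference ranged between 1.09 and 1.55 and the call held in 8. It was lost without replicate 3 or 4 of 85% O2 (adjusted p = 0.0913 and 0.0801) and without replicate 2, 3 or 4 of 21% O2 (adjusted p = 0.0807, 0.0713 and 0.0684).

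Of 8 cell-type marker lists, that of ciliated cells was the only one whose summed signal did not overlap between the oxygen levels. The summed signal of the 3 ciliated markers (2 above background on all arrays, Ccdc39 on 2) was 2.07 to 3.49 in 85% O2 and 0.918 to 1.36 in 21% O2, in units of the array's 75th percentile. That of the 10 alveolar type II markers was 36.3 to 46.8 in 85% O2 and 45.5 to 66.6 in 21% O2. Bright genes weigh most in such a sum. The mean log2 level of these markers was -0.49, -0.24, 0.44 and 0.41 in 85% O2, against -0.30, -0.48, 0.29 and 0.93 in 21% O2. The brightest of them, Lamp3, had a group mean of 3.52 in 85% O2 and 4.57 in 21% O2, and Abca3 went the other way, with 3.20 and 2.64. The 5 fibroblast markers summed to 382 to 625 in 85% O2 and 618 to 693 in 21% O2, the 3 smooth muscle markers to 613 to 865 in 85% O2 and 807 to 966 in 21% O2, and the 3 endothelial markers to 4.63 to 7.53 in 85% O2 and 7.33 to 9.26 in 21% O2. The 6 macrophage markers summed to 2.58, 2.75, 10.4 and 9.69 in 85% O2, against 1.98, 2.0, 4.13 and 5.46 in 21% O2, so that each 85% O2 array was above the 21% O2 array of its number. Of all probes, 27.1% were higher in all 4 such pairs, and the ranges of the macrophage sum overlapped. The 3 club cell markers summed to 1.39 to 3.46 in 85% O2 and 1.03 to 4.56 in 21% O2, and the 4 alveolar type I markers to 71.4 to 113 in 85% O2 and 78.7 to 96.1 in 21% O2. The part of these markers in the Cbs difference was not tested.

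In the NaHS experiment Cbs reached 1.47, 1.20, 1.01 and 1.35 after 24 h of NaHS, against 1.02, -0.74, 1.06 and 0.37 after 24 h of vehicle. The groups overlapped, and the vehicle arrays on slide 2 (replicates 2 and 4) were the low ones. The difference of 0.83 ± 0.38 (SE, n = 4 each; 95% interval 0.0051 to 1.65) had a limma adjusted p of 1.0. It was 0.20 within slide 1 and 1.46 within slide 2. At 6 h the values were 1.05, 1.0, 1.72 and 0.80 with NaHS and 0.75, 0.63, 1.92 and 0.77 with vehicle, a difference of 0.12 ± 0.38, and the 2 NaHS effects differed by 0.71 ± 0.54 (limma adjusted p = 1.0). Over the 6 groups the Cbs mean was highest after 24 h of NaHS (1.26 ± 0.20, SD, n = 4) and lowest with GYY4137 in 21% O2 (-0.09 ± 0.56). Those groups came from separate experiments on different slides.

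Cth, which also splits cystathionine to cysteine, had the widest spread of the members in 5 of the 6 groups. The exception was vehicle for 24 h, where the SD was 0.84 for Cbs and 0.38 for Cth. On the probe A_51_P431737 its levels were 3.15, 3.89, 3.04 and 3.23 after 24 h of vehicle, against 1.98, 2.68, 2.97 and 0.22 after 6 h of vehicle. These groups did not overlap, as for 4.11% of all probes in that direction, and the 6 h array numbered 4 was far the lowest. The difference was 1.37 ± 0.60 (SE, n = 4 each; 95% interval 0.08 to 2.65; limma adjusted p = 0.384). It was 0.62 within slide 1, 2.11 within slide 2 and 0.78 without both 6 h arrays numbered 4. On the other probe, A_55_P1959923, the lowest 24 h array (3.04) lay below the highest 6 h array (3.13), and the difference was 1.28 ± 0.63 (95% interval -0.08 to 2.63; limma adjusted p = 0.481).

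With NaHS the Cth probe A_51_P431737 gave 3.34, 4.18, 2.71 and 2.81 at 24 h, against 2.48, 1.74, 3.20 and 0.85 at 6 h. The groups overlapped and the difference of 1.19 ± 0.60 did not pass (limma adjusted p = 0.673). It was 0.18 within slide 1, 2.20 within slide 2 and 0.79 without both 6 h arrays numbered 4. NaHS against vehicle differed by -0.07 ± 0.60 at 24 h and by 0.11 ± 0.60 at 6 h, with intervals of -1.35 to 1.22 and -1.18 to 1.39. Changes of over 2-fold in either direction lie inside those intervals.

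In 85% O2 Cth was at 3.54, 3.02, 2.14 and 2.15, against 4.10, 4.63, 1.76 and 4.14 in 21% O2. The groups overlapped through replicate 3 of 21% O2 alone. The difference was -0.94 ± 0.62 (SE, n = 4 each; limma adjusted p = 0.313), and without that array it was -1.57 with an adjusted p of 0.0406. The other Cth probe, A_55_P1959923, gave -0.92 ± 0.64 with all arrays and -1.56 without that array (limma adjusted p = 0.337 and 0.0492). The order of the 6 group means ran between 3.66 ± 1.29 in 21% O2 and 1.96 ± 1.23 after 6 h of vehicle (SD, n = 4 each), with the 4 groups of 24 h above both of 6 h. The oxygen groups among these came from the other experiment, whose slides and design version differed. The 2 Cth probes tracked each other, with r = 0.994 over the 16 arrays of the NaHS experiment and 0.998 over the 8 arrays of the GYY4137 experiment.

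Mpst, which makes H2S from the keto acid of cysteine, was at 2.04, 1.97, 1.43 and 1.13 in 85% O2, against 2.0, 2.02, 2.09 and 1.77 in 21% O2. Replicates 3 and 4 of 85% O2 lay below every 21% O2 array and the other two lay among them. The difference was -0.33 ± 0.22 (SE, n = 4 each; limma adjusted p = 0.311). After 24 h Mpst was at 2.09, 1.97, 2.13 and 1.85 with NaHS and at 2.16, 2.17, 2.13 and 2.10 with vehicle. These overlapped, and the difference was -0.13 ± 0.13 (95% interval -0.41 to 0.15; limma adjusted p = 1.0). At 6 h it was at 2.24, 1.96, 2.04 and 1.85 with NaHS and at 2.33, 1.91, 2.11 and 1.71 with vehicle, a difference of 0.01 ± 0.13. The group mean was highest after 24 h of vehicle (2.14 ± 0.03, SD, n = 4) and lowest in 85% O2 (1.64 ± 0.44).

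**Figure D2:**
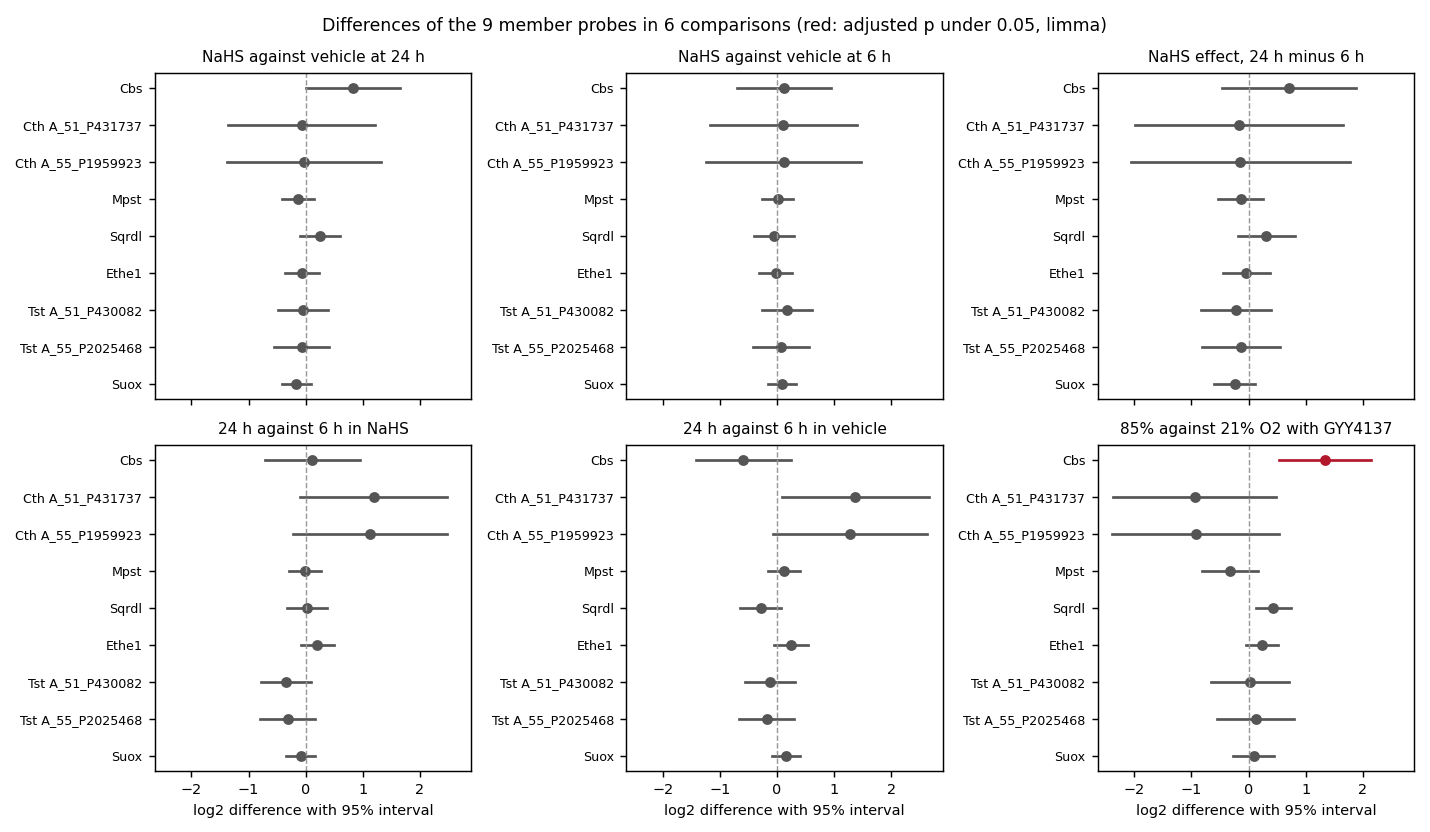
Difference of each of the 9 member probes in 6 comparisons (x axis, log2, first group named minus the second; points are limma estimates, lines 95% intervals). Only the Cbs interval for 85% against 21% O2 is drawn as called, and the Cth intervals are the widest in each panel.

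Sqrdl, the first enzyme of H2S oxidation, was at 3.37, 3.24, 3.31 and 3.12 in 85% O2, against 2.90, 2.79, 2.56 and 3.06 in 21% O2. All 85% O2 arrays lay above all 21% O2 arrays, a separation shared by 14.7% of all probes in that direction. The difference was 0.43 ± 0.14 (SE, n = 4 each; 95% interval 0.12 to 0.74), a 1.35-fold higher level with a limma adjusted p of 0.0620, which misses the threshold. Over 17 alternatives its adjusted p ranged between 0.0348 and 0.157, and the lowest, from normexp background correction, was the 1 that passed.

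After 24 h Sqrdl was at 3.59, 3.46, 3.71 and 3.77 with NaHS and at 3.61, 2.96, 3.54 and 3.40 with vehicle, which overlapped. The difference was 0.26 ± 0.16 (95% interval -0.10 to 0.61; limma adjusted p = 1.0). It was 0.08 within slide 1 and 0.44 within slide 2, and the low vehicle array, replicate 2, was also the lowest for Cbs. At 6 h it was at 3.37, 3.51, 3.65 and 3.92 with NaHS and at 3.45, 3.53, 3.73 and 3.95 with vehicle, a difference of -0.05 ± 0.16. The group mean was highest after 6 h of vehicle (3.66 ± 0.23, SD, n = 4) and lowest in 21% O2 (2.83 ± 0.21).

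Ethe1, the mitochondrial persulfide dioxygenase, was at 2.58, 2.92, 2.79 and 3.0 in 85% O2, against 2.57, 2.58, 2.49 and 2.67 in 21% O2. Replicate 1 of 85% O2 lay within the 21% O2 range and the other 3 lay above it. The difference was 0.24 ± 0.12 (SE, n = 4 each; limma adjusted p = 0.198). NaHS against vehicle gave -0.06 ± 0.14 at 24 h and -0.03 ± 0.14 at 6 h, with intervals of -0.36 to 0.23 and -0.32 to 0.27. For 24 h against 6 h it gave 0.21 ± 0.14 with NaHS and 0.24 ± 0.14 with vehicle (limma adjusted p = 0.849 and 0.574; with the replicate number as a block 0.239 and 0.110). It was higher at 24 h in all 8 same-numbered pairs, as were 5.59% of all probes. The other members were higher at 24 h in 3 to 7 of these pairs. Group means lay between 2.84 ± 0.15 after 24 h of vehicle and 2.57 ± 0.22 after 6 h of NaHS (SD, n = 4 each).

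Tst moves sulfane sulfur between thiosulfate, persulfides and cyanide. On the probe A_51_P430082 it was at 0.55, 0.64, 0.88 and 0.75 in 85% O2, against 0.09, 0.47, 1.62 and 0.56 in 21% O2. The 21% O2 arrays held both the lowest and the highest value, and the difference was 0.02 ± 0.30 (limma adjusted p = 0.970). With NaHS it was at 0.44, 0.62, 0.72 and 0.78 after 24 h, against 0.81, 1.22, 0.65 and 1.26 after 6 h. These overlapped, with a difference of -0.35 ± 0.20 (limma adjusted p = 0.785), and the other Tst probe gave -0.32 ± 0.23. NaHS against vehicle gave -0.05 ± 0.20 at 24 h and 0.17 ± 0.20 at 6 h, with intervals of -0.49 to 0.39 and -0.27 to 0.61. Group means lay between 0.98 ± 0.30 after 6 h of NaHS and 0.64 ± 0.15 after 24 h of NaHS (SD, n = 4 each).

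Suox, which oxidises sulfite to sulfate with a molybdenum cofactor, was at 1.30, 1.39, 1.40 and 1.01 in 85% O2, against 0.90, 1.16, 1.48 and 1.20 in 21% O2. These overlapped, with a difference of 0.09 ± 0.16 (limma adjusted p = 0.717). After 24 h it was at 1.31, 1.25, 1.38 and 1.74 with NaHS and at 1.53, 1.70, 1.48 and 1.61 with vehicle. The highest and the lowest values were both NaHS arrays, and the difference was -0.16 ± 0.12 (limma adjusted p = 1.0; 95% interval -0.41 to 0.09). At 6 h NaHS and vehicle differed by 0.08 ± 0.12. The group mean was highest after 24 h of vehicle (1.58 ± 0.10, SD, n = 4) and lowest in 21% O2 (1.19 ± 0.24). Over all 9 probes, 44 of 45 neighbouring pairs in the order of the 6 group means overlapped, and the exception was Sqrdl in 85% against 21% O2. Neighbours in a sorted order lie close by construction, so their overlap says little. Groups that were not neighbours also separated, for Cbs between the oxygen levels. The Cth probe A_51_P431737 did so between 24 h and 6 h of vehicle.

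Several members varied together from array to array in the NaHS experiment. Correlations were computed for 28 pairs, those among the 7 genes and of each with Sftpc (surfactant protein C, the defining alveolar type II product), over 16 arrays after each slide's mean was removed. The points share slides, replicate numbers, groups and the scaling by each array's percentile, and the permutation test (two-sided) takes arrays as independent although same-numbered arrays deviated together.

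Mpst and Sqrdl ran against each other. Pearson's r was -0.88 (permutation p = 2e-05, adjusted over the 28 pairs 0.00028) and Spearman's rho -0.89 (permutation p = 1e-05, the smallest 100000 resamples can give; adjusted 0.00028). It was -0.74 and -0.94 within slides 1 and 2, -0.91 and -0.85 within 24 h and 6 h, and -0.77 without the 2 arrays farthest from the Mpst median. In the GYY4137 experiment it was -0.39 over 8 arrays, which include the oxygen difference.

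Cth and Tst also ran against each other, with r = -0.80 (permutation p = 0.00014, adjusted 0.00131) and rho = -0.80 (permutation p = 0.00034, adjusted 0.00317). It was -0.84 and -0.80 within slides 1 and 2, -0.46 and -0.85 within 24 h and 6 h, -0.63 without the 2 arrays farthest from the Cth median, and -0.79 in the GYY4137 experiment. On 4 arrays, replicate 4 of both 6 h groups and replicate 3 of both oxygen groups, Cth was lowest of its group and Tst highest. In 85% O2 replicates 3 and 4 of Cth were close, at 2.14 and 2.15, and on the probe A_55_P1959923 replicate 4 was the lower.

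Cth was lower where Sftpc was higher, with r = -0.86 (permutation p = 2e-05, adjusted 0.00028) and rho = -0.80 (permutation p = 0.00032, adjusted 0.00317). It was -0.57 and -0.89 within slides 1 and 2, -0.79 and -0.78 within 24 h and 6 h, -0.81 without the 2 farthest arrays and -0.58 in the GYY4137 experiment. Sftpc itself was at 6.29 and 5.16 on the NaHS and vehicle 6 h arrays numbered 4, its highest values. Sftpc also varied with 4 other members. The values were r = 0.75 for Sqrdl (permutation p = 0.00072, adjusted 0.00504) with rho = 0.68 (permutation p = 0.00501, adjusted 0.0273), and r = -0.71 for Ethe1 (permutation p = 0.00214, adjusted 0.00999) with rho = -0.66 (permutation p = 0.00683, adjusted 0.0273). For Mpst r was -0.63 (permutation p = 0.00836, adjusted 0.0230) and for Tst 0.63 (permutation p = 0.00812, adjusted 0.0230), with rho of -0.56 and 0.56 (permutation p = 0.0271 and 0.0255, adjusted 0.0842 each). Both partners of the Mpst and Sqrdl pair and of the Cth and Tst pair thus varied with Sftpc, in opposite directions. Within slides 1 and 2 r was 0.06 and 0.83 for Sqrdl, -0.68 and -0.86 for Ethe1, 0.23 and -0.82 for Mpst, and 0.59 and 0.64 for Tst. Without the 2 arrays farthest from the member's median it was 0.64, -0.69, -0.42 and 0.70 in that order of genes. Within 24 h and 6 h r was 0.82 and 0.79 for Sqrdl, -0.30 and -0.34 for Ethe1, -0.85 and -0.49 for Mpst, and 0.39 and 0.60 for Tst. In the GYY4137 experiment it was -0.15, 0.16, -0.42 and 0.61 in that order, so Sqrdl and Ethe1 had the opposite sign there.

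The alveolar type II markers summed to 46.2 to 70.5 after 24 h of vehicle and 57.7 to 113 after 6 h, the 3 club cell markers to 2.34 to 19.2 after 24 h and 23.8 to 185 after 6 h, and the 6 macrophage markers to 2.85 to 18.7 after 24 h and 1.51 to 3.38 after 6 h. The part of such markers in the Cth values was not tested.

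Cbs was higher where Mpst was lower, with r = -0.70 (permutation p = 0.00275, adjusted 0.0110) and rho = -0.66 (permutation p = 0.00677, adjusted 0.0273). It was -0.74 and -0.68 within slides 1 and 2, -0.51 without the 2 arrays farthest from the Cbs median, and -0.78 in the GYY4137 experiment. Cbs and Sqrdl had r = 0.68 (permutation p = 0.00624, adjusted 0.0218) and rho = 0.54 (permutation p = 0.0351, adjusted 0.0893). In the NaHS experiment r fell to 0.30 without the 2 arrays farthest from the Cbs median. It was 0.60 and 0.72 within slides 1 and 2, 0.81 and 0.42 within 24 h and 6 h, and 0.73 in the GYY4137 experiment. Cth and Ethe1 had r = 0.72 (permutation p = 0.00148, adjusted 0.00829) and rho = 0.72 (permutation p = 0.00243, adjusted 0.0170). Within 24 h and 6 h r was 0.06 and 0.60, and -0.37 in the GYY4137 experiment. Cth and Sqrdl had r = -0.64 (permutation p = 0.00903, adjusted 0.0230), but 0.57 and -0.79 within slides 1 and 2. Ethe1 and Tst had r = -0.57 (permutation p = 0.0212, adjusted 0.0495). Neither of the last pairs passed by rho (permutation test, adjusted 0.31 and 0.089).

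**Figure D3:**
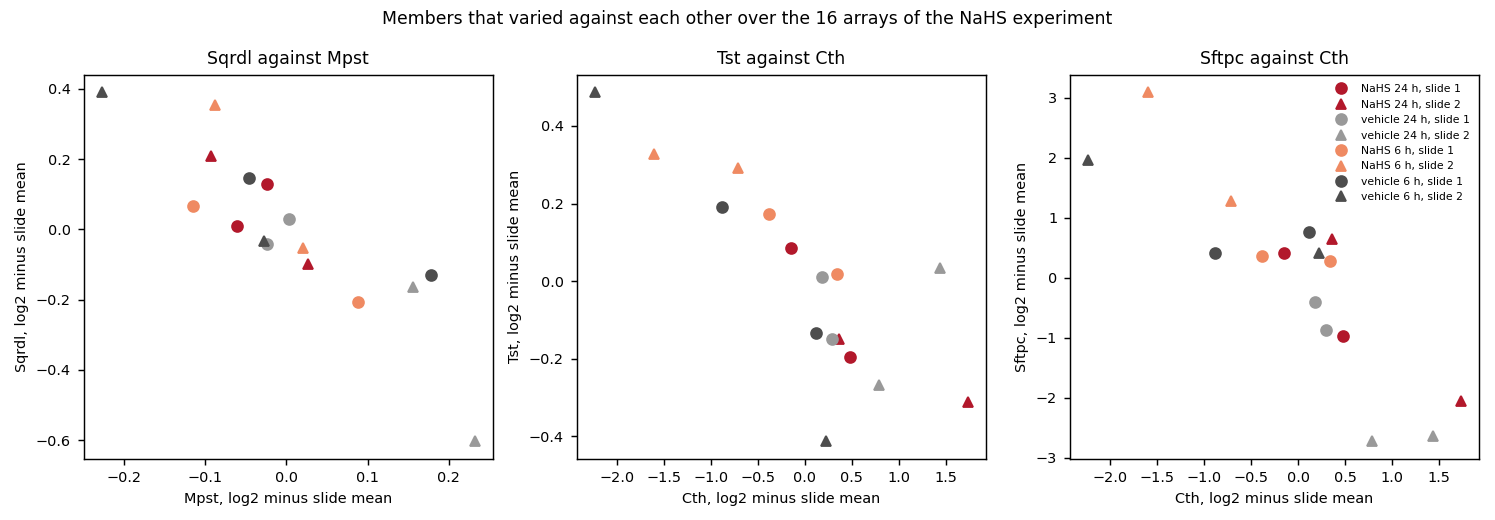
Sqrdl against Mpst, Tst against Cth, and Sftpc against Cth on the 16 arrays of the NaHS experiment (both axes log2 level minus the slide's mean; colour is the group, shape the slide). All 3 clouds fall to the right, with r of -0.88, -0.80 and -0.86.

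Among 12908 named genes above background on all 16 arrays, the pattern most like that of Cth (Pearson's r, slide means removed) was that of Psph (0.99), followed by Cd97 and Aldh1l2 (0.99 each). For Sqrdl the closest genes were Mal (0.97), Gpr116 (0.97) and A2ld1 (0.96), and for Ethe1 Trpv2 (0.95), Ccdc159 (0.93) and Sepx1 (0.92). Mpst was closest to Cebpd (0.92), Ifi27l2a (0.91) and Col3a1 (0.89), a fibrillar collagen gene. Cbs was closest to Pbx3 (0.91) and Rem2 (0.91), and Tst to Itga10 (0.92), Tmem67 (0.92) and Gbe1 (0.91). For Suox the highest value was 0.84, for Ldhal6b. Symbols are those of the array design, and the values are the highest of many and carry no test.

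Genes of the pathways next to the members were called in 85% against 21% O2. Of 47 tested genes of 5 lists, 11 passed, where 16.1% of all probes were called. The lists were chosen with earlier results of these data known, and 1 probe stood for each gene. Setting these shares side by side is therefore no test of the pathways. In the NaHS experiment limma called 0 of them in each comparison, and at an unadjusted p under 0.05 it gave 1 for NaHS against vehicle at 24 h, 0 at 6 h, 0 for the difference of these effects, and 6 and 10 for 24 h against 6 h with NaHS and with vehicle. In cysteine supply and glutathione synthesis 3 of 9 genes were higher and 1 lower, with a median difference of 0.63 where that of all probes was 0.06. Both subunits of glutamate-cysteine ligase rose, Gclc by 1.41 ± 0.11 (SE, n = 4 each; limma adjusted p = 0.00123) and Gclm by 1.52 ± 0.26 (limma adjusted p = 0.00952), as did glutathione synthetase Gss, by 0.63 ± 0.12. The glutamine carrier Slc1a5 fell by 0.95 on the log2 scale (limma adjusted p = 0.0381). The cystine carrier subunits Slc7a11 (0.65 ± 0.35) and Slc3a2 (-0.25 ± 0.23) did not pass.

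In cysteine breakdown, thioredoxin and other sulfide-linked enzymes 1 of 13 genes was called, the cytosolic thioredoxin reductase Txnrd1, which rose by 1.04 ± 0.16 (limma adjusted p = 0.00728); the list's median was -0.02. Genes of that list were called lower in 3 of 17 alternatives, 1 with normexp, 2 with median centring and 1 without replicate 1 of 21% O2. Of 11 methionine cycle genes limma called 0 (2 at an unadjusted p under 0.05), but 1 or 2 lower in 7 of 17 alternatives; their median was 0.03. It was 2 with median centring or without replicate 1 of 21% O2, and 1 with normexp, quantile normalization, a percentile over probes detected on all arrays, probes above background on every array or 1 probe a gene. In sulfate activation and transport 1 of 9 rose and 3 fell, with a median of -0.06. The synthetases of activated sulfate, Papss1 and Papss2, fell by 0.68 and 0.74 (limma adjusted p = 0.0123 and 0.0171), the sulfate carrier Slc26a2 fell by 0.41, and Slc35b3, a carrier of activated sulfate, rose by 0.41. In the list of molybdenum cofactor synthesis 2 of 5 rose, Mocs2 by 0.58 and Mocos by 0.56 (limma adjusted p = 0.0105 and 0.0203), and the median was 0.48. Gclc, Gclm, Gss, Txnrd1, Papss1, Papss2 and Mocs2 stayed called under all 17 alternatives. Slc1a5, Slc26a2, Slc35b3 and Mocos lost the call in 7, 8, 9 and 5 of them, with adjusted p of up to 0.101, 0.0872, 0.127 and 0.0583. With the replicate number as a block, limma gave adjusted p of 0.0578 for Slc26a2, 0.0566 for Slc35b3 and 0.0527 for Mocos.

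**Figure D4:**
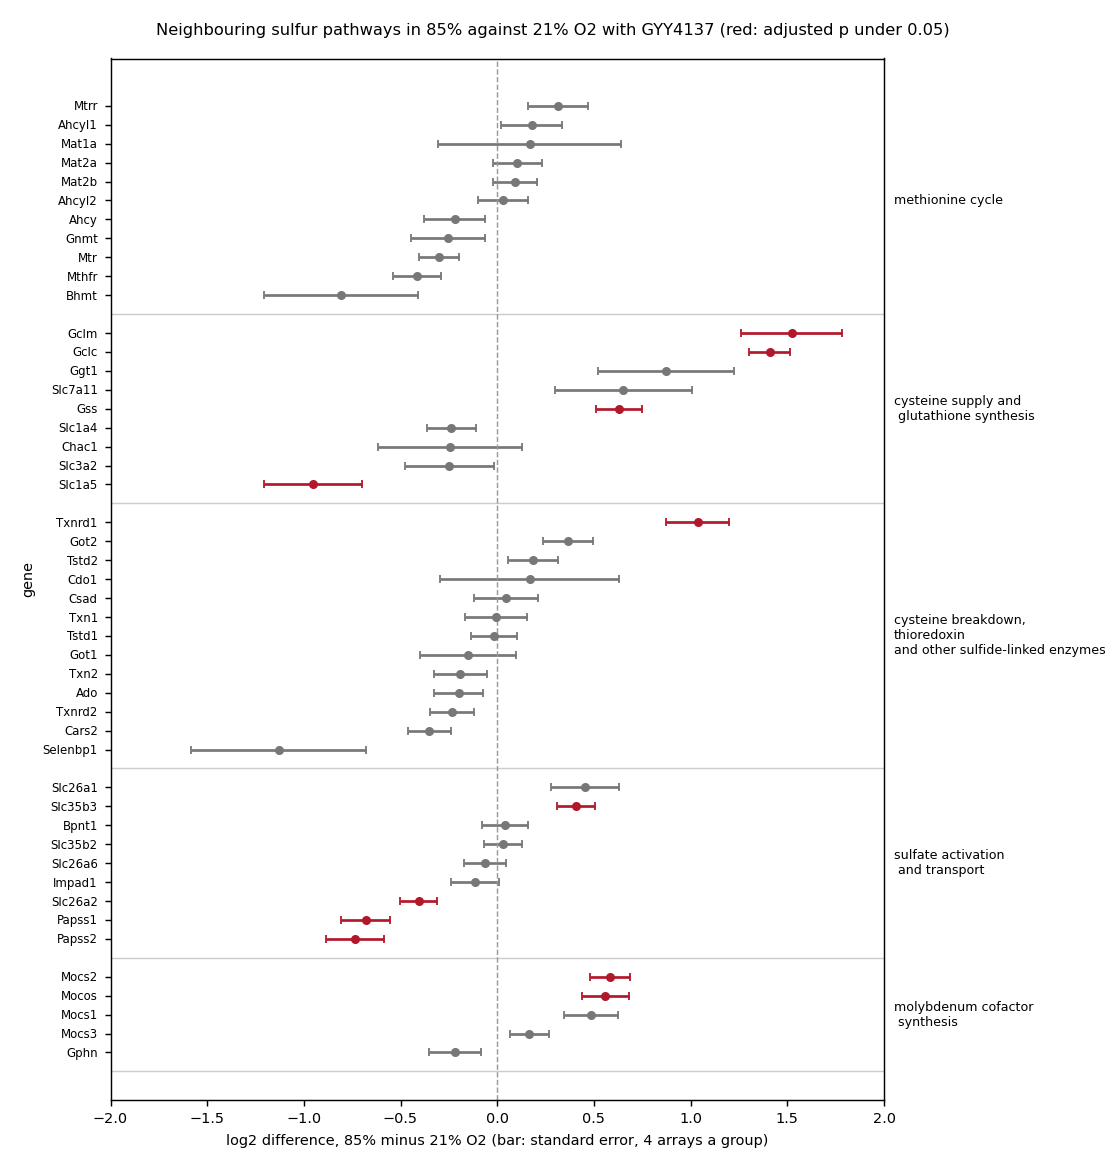
Difference in 85% minus 21% O2 with GYY4137 (x axis, log2; bars are the SE, 4 arrays a group) for 47 genes of 5 neighbouring sulfur pathways. Called genes are red, with Gclm and Gclc at 1.52 and 1.41 farthest to the right and Slc1a5 at -0.95 the lowest of them.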

How the data were processed

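Total RNA of 24 samples was labelled with Cy3 and hybridised to Agilent mouse arrays of 62976 spots. The deposited scanner files hold intensity per spot, processed (background-subtracted) by Feature Extraction 10.7.3.1 per the file headers and the submitters' processing notes. The log2 values of the authors' series matrix, whose steps are not stated, are blank for 10091 and 6013 probes of the 2 experiments and served as an alternative.

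Spots marked uneven or as outliers were left out, spots of a probe were averaged as log2, and each array's 75th percentile was subtracted. Probes well above background on at least 4 arrays of an experiment were tested, 40127 in the NaHS and 41621 in the GYY4137 experiment, in separate fits with limma 3.58.1 (R 4.3.3, data.table version 1.17.8), with Benjamini-Hochberg adjustment over all tested probes at 0.05. Every member probe is reported. Pathway genes, markers and the 3 most similar genes with a usual symbol follow fixed lists and rules, and of several probes of a gene the brightest stands for it. The members and lists were chosen with earlier results of these data known. Array numbers limit the precision. Correlations were computed with numpy 2.4.6 and pandas 2.3.3 under Python 3.11.15, and figures drawn with matplotlib 3.10.9.

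Same-numbered arrays of different groups deviated together. Over 24 pairs of the NaHS experiment r was 0.527 to 0.751, against 0.405 to 0.697 for different numbers on the same slide. It was 0.183 to 0.258 over 4 pairs of the GYY4137 experiment. The labels state no pairing, and the main fits did not use the numbers. The replicate number as a block was an alternative, under which the Cbs call was lost (limma adjusted p = 0.0607). On simulated data, limma recovered 75 of 200 changes of 1 log2 unit and 159 of 200 of 2 log2 units for oxygen, and 82 and 126 of 200 for 24 h against 6 h with NaHS. The simulations changed only 200 probes and drew the arrays independently. For oxygen limma called 6719 probes in the data, and same-numbered arrays deviated together, so this recovery need not carry over. Alternatives varied the background correction, scaling, filter, probe choice, blocks and arrays left out. One gene among those most like Cbs is not reported here.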

Additional observations from a re-analysis of the deposited data

Results flagged for a closer look

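Among 54 checks of a probe within a group of 4 arrays, 3 found an array whose gap to its nearest neighbour took up more of the group's range than Dixon's 95% limit, and chance gives about 1 in 20. Cbs was at 1.92 on replicate 3 of the vehicle 6 h group, above the other three arrays. Cth (probe A_55_P1959923) was at 1.497 on replicate 3 of the 21% O2 group, below the other three. Suox was at 1.74 on replicate 4 of the NaHS 6 h group, above the other three.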

How the results depend on the processing

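No called member result reversed under any alternative, and in the 5 comparisons of the NaHS experiment 0 member probes were called under every alternative run. In 85% against 21% O2, 1 member probe was called, against 2 with normexp background correction (Sqrdl too, adjusted p = 0.0348) and 0 with median centring (Cbs adjusted p = 0.0577), the deposited values (0.0536), no filter (0.0551) or the replicate block (0.0607). The replicate block changed no other member's call. Differences that were not called changed sign in 14 of 268 member values for NaHS against vehicle at 24 h, 29 of 268 at 6 h, 21 of 259 for the difference of these effects, 13 and 3 of 268 for 24 h against 6 h with NaHS and with vehicle, and 11 of 151 for oxygen. Leaving out 1 array gave between 0 and 2 calls. The cause of these changes was not tested. The setting without a filter held more probes, and leaving out an array left fewer arrays. Median centring moved the median of all probes to -0.08, where it was 0.06, and 35.4% of calls were then higher; quantile normalization gave 49.9%, the deposited values 49.8% and the main scaling 63.5%. Leaving out 1 array gave 2709 and 3183 calls over all probes without replicates 3 and 4 of 85% O2 and 3281 and 4236 without replicates 2 and 3 of 21% O2, against 6719 with all arrays. It gave 9 to 455 for 24 h against 6 h with vehicle (369 with all), moved by over 1.5 times by 12 of 16 arrays, and 0 to 15 with NaHS (10 with all), moved so by 14. Other settings gave 0 to 1266 with vehicle and 0 to 85 with NaHS. Leaving out both 6 h arrays numbered 4, chosen after seeing the data, gave 58 with vehicle and 8 with NaHS. 4 arrays a group limit what could be called.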
